A study of Arabidopsis thaliana with 12 samples.

Results

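The 7 genes described here, *ASN1*, *SEN1*, *DIN2*, *BT2*, *BXL2*, *BGAL4* and *AKINBETA1*, are Arabidopsis genes known for raised transcript levels in darkness or when sugar runs short. They were selected by name, with their levels on these arrays already known, so their values are given as a description and carry no test. Each had 1 probe set on the Affymetrix ATH1 array, which makes them 7 of the 13911 genes that could be paired with a probe set there. *AKINBETA1* was paired with its probe set by the array annotation, and the other 6 were paired only by the supplementary tables of the study, which list genes that the authors selected on these same arrays.

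RNA came from whole Arabidopsis seedlings of the Columbia strain in 4 groups of 3 biological replicates, with 1 array for each. The groups were the wild-type under mock treatment, the wild-type under salt, the overexpressor 35S:PtSnRK2.7:NOS under mock treatment and the same overexpressor under salt. Seedlings grown for 7 days at 22°C with 16 h of light and 8 h of dark were moved to medium with 200 mM NaCl, or without it for the mock treatment, and were sampled 2 days later at an age of 9 days. The overexpressor carried the poplar kinase gene behind the CaMV 35S promoter, which is active in most tissues, and was represented by 1 T2 line, line 20. No vector control was among the arrays used here, the array did not measure the poplar transcript, and the time of day at sampling is not given in the sources used here.

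Plants that run out of photosynthetic sugar switch to other carbon and nitrogen sources. In Arabidopsis this state is sensed in part by SnRK1, a kinase complex of catalytic, β and βγ subunits, and many of the genes that it raises are lowered again by added sugar. The products of such genes take apart amino acids, cell wall polysaccharides and stored compounds, or carry nitrogen in asparagine, which holds little carbon for its nitrogen. SnRK2 kinases, to which PtSnRK2.7 belongs, are relatives of SnRK1 that act in osmotic stress and abscisic acid signaling.

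Levels are linear MAS5 signals, 1 value for every probe set of an array, and differences are given on the log2 scale with their standard error (SE) from a limma fit. The fit shares the variance of a probe set over all groups, so its SE does not follow the spread of the groups compared. For *SEN1* the SE was 0.37 under both treatments. The SDs of its log2 signals were 0.28 (wild-type) and 0.17 (overexpressor) under mock treatment, but 1.06 and 0.07 under salt. Comparisons that include a group of high spread can thus look too precise. All arrays had been brought to a common target, with median signals between 169.5 and 194.7. The 20th percentile of an array's signals, between 20.6 and 27.8, serves here as a mark of near-background levels. Replicates differed more in the salt-treated wild-type, where the median SD of log2 signals was 0.36, than in the other 3 groups, where it lay between 0.20 and 0.21. Levels of different probe sets are not comparable with each other, so each gene is compared only with itself. In RNA from whole seedlings, fewer cells of a type and less RNA per cell cannot be told apart.

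The 7 genes fell into 3 patterns. *SEN1*, *BXL2*, *BGAL4* and *AKINBETA1* were highest in the mock-treated overexpressor and lowest in the salt-treated overexpressor. *BT2* was lower under salt, and its genotypes overlapped under each treatment. *ASN1* and *DIN2* were higher under salt in both genotypes, but under mock treatment *ASN1* was higher in the overexpressor and *DIN2* was lower.

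**Figure D1:**
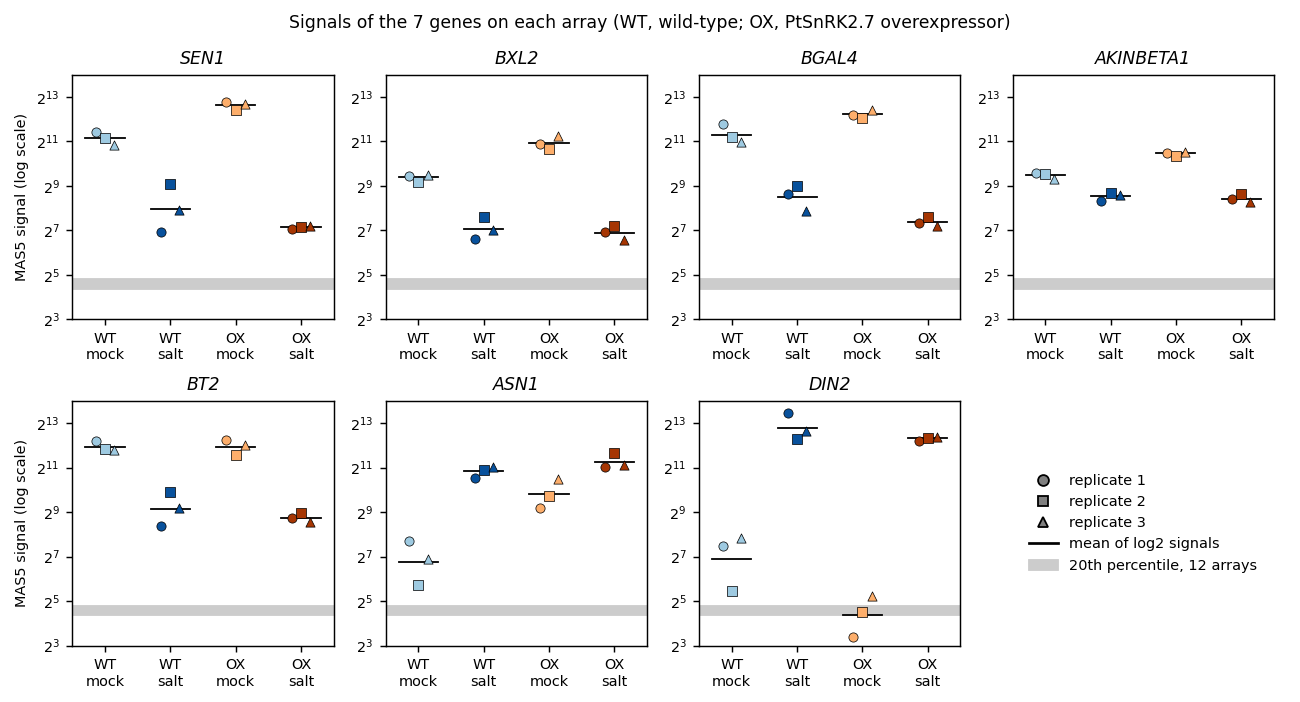
MAS5 signals of the 7 genes on each of the 12 arrays (log axis), by group, with the mean of the log2 signals as a line and the range of the 20th percentile of the arrays as a grey band. *DIN2* in the mock-treated overexpressor, at 10.4 to 37.0, is the only group that reaches the grey band.

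*SEN1* is a dark-induced and senescence-associated gene. Its mock signals were 2722, 2256 and 1838 for the wild-type against 6905, 5480 and 6543 for the overexpressor. Under salt they were 123, 536 and 245 in the wild-type and 132, 143 and 145 in the overexpressor. All mock-treated overexpressor arrays lay above all mock-treated wild-type arrays, whereas the salt-treated groups overlapped. Overexpressor minus wild-type was 1.48 (SE 0.37) on the log2 scale under mock treatment and -0.85 (SE 0.37) under salt, and it was -0.31 under salt without wild-type salt replicate 2, the highest of the 3. The change with salt was -3.15 in wild-type seedlings, from a mean of 2272 ± 442 (SD, n = 3) to 301 ± 212. For the overexpressor it was -5.49, from 6309 ± 740 to 140 ± 7.11.

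*BXL2* encodes a β-xylosidase, an enzyme that removes xylose from cell wall polysaccharides. Its signals under mock treatment were 699, 582 and 727 in the wild-type and 1881, 1605 and 2393 in the overexpressor. Under salt they were 97.5, 191 and 131 in the wild-type and 121, 144 and 94.5 in the overexpressor. As for *SEN1*, the genotypes were apart under mock treatment and overlapped under salt. The difference between them was 1.54 (SE 0.24) under mock treatment and -0.19 (SE 0.24) under salt on the log2 scale, and the second value turned to 0.07 without wild-type salt replicate 2. The change with salt was -2.31 without and -4.03 with the transgene.

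*BGAL4*, which encodes a β-galactosidase, followed the same order of groups with no overlap between any neighbors. Its signals under mock treatment were 3516, 2319 and 1985 in the wild-type and 4620, 4268 and 5493 in the overexpressor. Under salt they were 403, 505 and 237 in the wild-type and 159, 197 and 147 in the overexpressor. *BGAL4* was thus the gene of the 7 whose order of genotypes turned with the treatment without overlap on either side. Its difference between the genotypes was 0.91 (SE 0.26) under mock treatment and -1.13 (SE 0.26) under salt on the log2 scale, and the second became -0.68 when arrays were weighted by their quality. With salt, *BGAL4* changed by -2.80 in wild-type and by -4.84 in overexpressor seedlings.

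*AKINBETA1* encodes a β subunit of the SnRK1 complex. It had the smallest differences of the 7 genes under salt treatment of the wild-type, and also the smallest SE. Its signals under mock treatment were 771, 734 and 643 in the wild-type and 1442, 1313 and 1477 in the overexpressor, and under salt they were 316, 404 and 390 in the wild-type and 336, 397 and 307 in the overexpressor. The overexpressor had a 1.97-fold level under mock treatment, a log2 difference of 0.98 (SE 0.13) with no overlap, and the salt-treated groups overlapped, with a difference of -0.09 (SE 0.13). With salt, *AKINBETA1* changed by -0.96 in wild-type and by -2.03 in overexpressor seedlings.

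*BT2* encodes a protein with a BTB and a TAZ domain that is known in Arabidopsis as a component of sugar, nitrogen and hormone responses. Its signals under mock treatment were 4697, 3661 and 3557 in the wild-type and 4866, 3030 and 4144 in the overexpressor. Under salt they were 332, 953 and 589 in the wild-type and 429, 502 and 376 in the overexpressor. The genotypes overlapped under both treatments, and every salt-treated array was below every mock-treated one. The means under mock treatment were 3972 ± 630 (SD, n = 3) and 4014 ± 925, with an SE of 0.30 for their log2 difference. The log2 change with salt was -2.79 for the wild-type, or -3.16 without its salt replicate 2, and -3.19 for the overexpressor.

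*ASN1* encodes a glutamine-dependent asparagine synthetase and is also known as a dark-induced gene. Its mock signals were 206, 53.3 and 119 for the wild-type against 576, 852 and 1439 for the overexpressor. Under salt they were 1502, 1930 and 2068 in the wild-type and 2091, 3186 and 2246 in the overexpressor. The 4 groups did not overlap, and the mock-treated overexpressor stood between the mock-treated wild-type and both salt-treated groups. Relative to the wild-type, the overexpressor differed by 3.02 (SE 0.42) under mock treatment and by 0.44 (SE 0.42) under salt on the log2 scale. With salt, *ASN1* changed by 4.05 in wild-type and by 1.47 in overexpressor seedlings, where the call was lost without overexpressor mock replicate 1 or salt replicate 2. The 3 mock-treated wild-type signals spanned a ratio of 3.87 between the highest and the lowest.

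*DIN2* encodes a dark-induced β-glucosidase. Its mock signals were 177, 43.7 and 225 for the wild-type against 10.4, 22.5 and 37.0 for the overexpressor. Under salt they were 11367, 4989 and 6400 in the wild-type and 4741, 5162 and 5340 in the overexpressor. The salt-treated groups overlapped and every salt-treated array was far above every mock-treated one. Under mock treatment the wild-type arrays were all higher than those of the overexpressor, by a narrow margin, since 43.7 in wild-type replicate 2 was close to 37.0. That wild-type array also held the lowest of the 3 *ASN1* signals. On the log2 scale, salt changed *DIN2* by 5.89 (SE 0.56) in wild-type and by 7.95 (SE 0.56) in overexpressor seedlings. The mock-treated overexpressor signals were near background, and with low signals raised to the 20th percentile of their array the change in the overexpressor was 7.46, and overexpressor minus wild-type under mock treatment was -2.07 in place of -2.55.

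**Figure D2:**
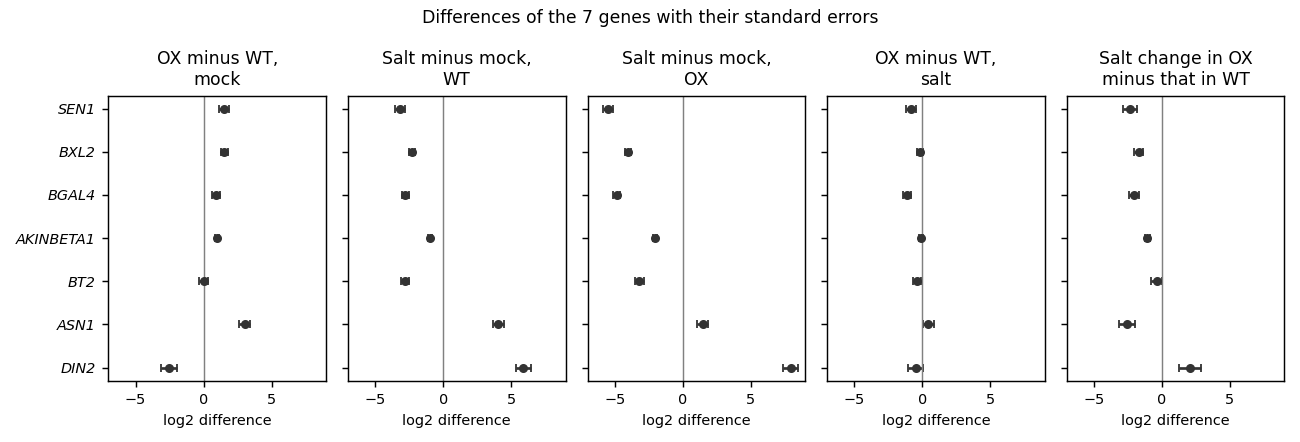
Log2 differences of the 7 genes with their SE from the limma fit, for the genotypes under mock treatment, for salt in each genotype, for the genotypes under salt and for the salt change in the overexpressor minus that in the wild-type. Of the genotype differences under salt only that of *BGAL4*, at -1.13, goes past -1, whereas under mock treatment *ASN1* stands at 3.02 and *DIN2* at -2.55.

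The calls of the limma fit for these 7 genes are given beside those of all 22746 probe sets tested, and nothing is read from them because the genes had been chosen on these arrays. A call was an adjusted p under 0.05, adjusted over all probe sets. In the wild-type, 2 of the 7 were called higher under salt (*ASN1* and *DIN2*) and 5 lower, against 17.2% higher and 21.9% lower of all probe sets. In the overexpressor the same genes were called in the same directions, against 17.1% and 24.0%. Under mock treatment 3 were called higher in the overexpressor (*ASN1*, *BXL2* and *AKINBETA1*), against 0.132% higher and 0.431% lower of all probe sets. Under salt 1 was called lower (*BGAL4*), against 1.23% higher and 0.783% lower. The salt change was called more negative in the overexpressor for *BGAL4* and *AKINBETA1*, against 0.246% of all probe sets with a more positive and 0.0528% with a more negative change.

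These calls moved with single arrays and settings. For the difference in the salt change, 0 of the 7 were called without wild-type mock replicate 2 or 3 or without any one of the 6 overexpressor arrays, 1 (*BGAL4*) was called without wild-type mock replicate 1 or wild-type salt replicate 3, 4 when salt replicate 1 of the wild-type was left out and 5 when it was salt replicate 2. The count was also 0 with no intensity trend in the variances and with the replicate number as a block. The call of *BGAL4* between the genotypes under salt was lost without the same 8 arrays and without wild-type salt replicate 1, and with quantile normalization, no trend, array quality weights, only the groups compared or the block. Under mock treatment, the calls of *ASN1* and *AKINBETA1* were kept without each of the 12 arrays and that of *BXL2* was lost without wild-type mock replicate 2 or overexpressor mock replicate 3, while with no trend *AKINBETA1* alone was called. Without wild-type salt replicate 2, *SEN1* was called higher and *DIN2* lower as well.

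The salt-treated wild-type arrays moved together over the genes. Replicate 2 had the highest signal of the 3 for *SEN1*, *BT2*, *BXL2*, *BGAL4* and *AKINBETA1* and the lowest for *DIN2*, so that for these 6 genes it was the array closest to the mock-treated wild-type. For *ASN1* it was in the middle. In the salt-treated overexpressor, replicate 2 was also the highest for *BT2*, *BXL2*, *BGAL4* and *AKINBETA1*, but its arrays were closer together than those of the salt-treated wild-type for *SEN1*, *BT2*, *BXL2*, *BGAL4* and *DIN2*.

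Across the 12 arrays, *BXL2* and *AKINBETA1* had the most similar log2 signals among the pairs of the 7 genes, with a Pearson r of 0.988, and *SEN1* and *BXL2* had an r of 0.982. *ASN1* stood apart from the others, with r between -0.72 for *BT2* and 0.61 for *DIN2*. The arrays fall into 4 groups that differ strongly by salt, so values of r are given without a p. How common high values are among all probe sets was not computed. Among 6433 probe sets paired with 1 gene and above the median level, the closest to *SEN1* was *AT3G15450* (r = 0.990), the closest to *DIN2* was *JRG21* (r = 0.993) and the closest to *BGAL4* was *AT4G26555* (r = 0.994). For *BT2* it was *AT3G59980* (r = 0.996). The nearest match of *ASN1*, *AT3G59080*, was less close, with an r of 0.956.

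Other genes of the dark and starvation response were taken from a list of 37 genes, of which 23 were measured here. Here and below, measured means that a probe set could be paired with that gene alone. A gene not paired may still have a probe set on the array, since 8177 probe sets were paired with no gene and 503 with several. The list was written with results of these arrays known, so the direction of the 23 genes is not independent evidence. In addition, 13 of the 23 were paired only by the tables of the study, and 10 were paired by the annotation. Under mock treatment, 4 of the 23 were higher in the overexpressor and 0 were lower, against 0.132% and 0.431% of all probe sets. At an unadjusted p under 0.05 limma gave 12 and 0. Here and below, the share of all probe sets at an unadjusted p was not computed, so these counts cannot be set against the shares given. *TPS11* and *TPS10*, which encode class II trehalose phosphate synthase proteins, were higher by 1.12 (SE 0.19, adjusted p = 0.023) and 1.03 (SE 0.18, adjusted p = 0.025) on the log2 scale. *MCCA* and *IVD*, which encode a subunit of methylcrotonyl-CoA carboxylase and isovaleryl-CoA dehydrogenase, both enzymes of leucine breakdown, were higher by 1.02 (SE 0.18, adjusted p = 0.025) and 0.65 (SE 0.11, adjusted p = 0.025). The mean signal of *MCCA* was 693 ± 78.9 (SD, n = 3) without and 1415 ± 277 with the transgene, with no overlap. The difference was above 0 in 21 of the 23 genes, against 51.9% of all probe sets, and its median was 0.53 against 0.01 for all probe sets. Among the 10 genes paired by the annotation, which belong to the same list, it was above 0 in all 10 and called in 2, *IVD* and *MCCA*.

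These 4 genes, like the others singled out below by their calls, were named after their values were seen. The 2 genes with a difference below 0 were *DIN11*, a gene for a 2-oxoglutarate-dependent dioxygenase, and *KFB20*, a gene for a kelch-repeat F-box protein, with differences of -0.77 (SE 0.52) and -0.44 (SE 0.32). The hexose transporter gene *STP1* had a difference of 1.03 (SE 0.24, adjusted p = 0.096) and the dormancy-associated gene *DRM2* one of 0.89 (SE 0.18, adjusted p = 0.056), neither of which passed. The 4 calls became 0 when wild-type mock replicate 2 or 3 or overexpressor mock replicate 2 or 3 was left out, 2 when it was wild-type mock replicate 1 and 8 when it was wild-type salt replicate 2. Over all probe sets, the 30 called higher became 8, 18, 9, 6, 19 and 112 in the same order of arrays. Without the intensity trend 0 of the list were called, with 11 at an unadjusted p under 0.05, and 8 of all probe sets were called higher.

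Under salt, more of the list was called lower than higher, as it was among all probe sets. In the wild-type 5 of the 23 were higher and 11 lower, against 17.2% and 21.9% of all probe sets, with a median change of -0.49 against -0.07 for all probe sets. In the overexpressor 3 were higher and 15 lower, against 17.1% and 24.0%, with a median of -1.27 against -0.09. Values here are log2 changes, first for the wild-type and then for the overexpressor. *CHYR1*, a gene for a RING-type ubiquitin ligase, changed by -3.17 and -3.33 (adjusted p = 7.6e-06 and 3.2e-06). *BZIP63*, a gene for a transcription factor known as a target of SnRK1, changed by -1.90 and -2.34, *DRM2* by -1.23 and -2.54 and *AT3G15450*, the gene closest to *SEN1* across the arrays, by -1.64 and -2.47. *DIN3*, a subunit gene of the branched-chain keto acid dehydrogenase, changed by -1.01 and -1.66, and *GDH1*, a glutamate dehydrogenase gene, by -0.99 and -1.60. All of these were called in both genotypes. Some members went the other way in both. *DIN11* changed by 3.56 and 3.38 and *EXL1*, an EXORDIUM-like gene, by 2.94 and 2.93. *D2HGDH*, a gene for D-2-hydroxyglutarate dehydrogenase of lysine breakdown, changed by 0.56 and 0.55. With only the 10 genes paired by the annotation, 2 were higher and 3 lower in the wild-type, near the shares of all probe sets, and 1 higher and 5 lower in the overexpressor.

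**Figure D3:**
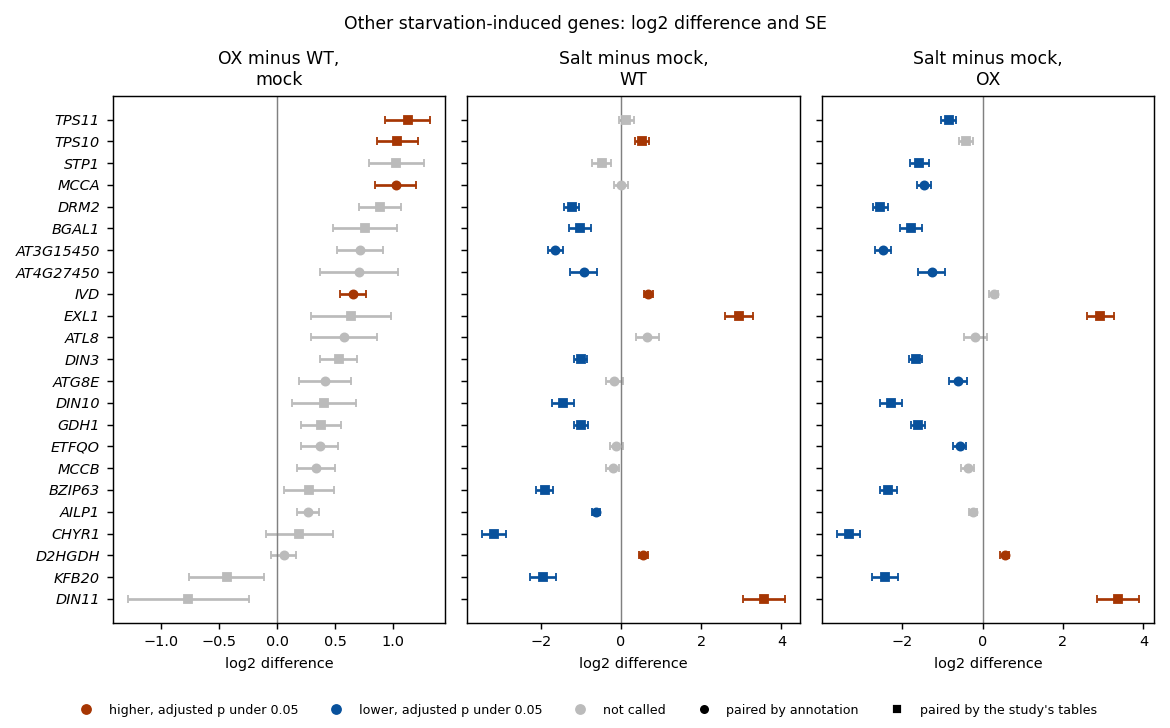
Log2 differences and SE of the 23 other measured starvation genes, ordered by overexpressor minus wild-type under mock treatment. In the left panel 21 of 23 points lie above 0 and 4 are called higher, while the salt panels show 11 genes called lower for the wild-type and 15 for the overexpressor (circles, paired by annotation; squares, paired only by the tables of the study).

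Under salt, 1 of the 23 genes differed between the genotypes, against 1.23% of all probe sets higher and 0.783% lower. *AILP1*, a gene for an aluminium-induced protein, was higher in the overexpressor by 0.66 (SE 0.10, adjusted p = 0.0088), with means of 2507 ± 157 and 3956 ± 254 (SD, n = 3). The median difference over the 23 genes was -0.06, against -0.03 for all probe sets. The salt change differed between the genotypes for *MCCA* alone, which changed by 0.01 in wild-type and by -1.45 in overexpressor seedlings, a difference of -1.45 (SE 0.25, adjusted p = 0.037). It is set against 0.0528% of all probe sets with a more negative change. The estimate was above 0 in 1 of the 23 genes, against 47.3% of all probe sets, and its median was -0.49 against -0.03, a comparison that shares its arrays with the mock contrast above. This single call became 2 when wild-type salt replicate 1 was left out, 4 when it was replicate 2, and 0 for each of the other 10 arrays.

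Relatives of the 7 genes were measured only in part, and those measured are described family by family, with changes under salt given first for the wild-type and then for the overexpressor. Of these relatives, *ASN2*, *ASN3*, *BT4*, *BT5*, *BXL4* and *BGAL1* were paired only by the tables of the study, so their calls are not independent evidence. With salt, 17.2% of all probe sets were called higher and 21.9% lower in the wild-type, against 17.1% and 24.0% in the overexpressor. Of the asparagine synthetases, *ASN2* and *ASN3* were lower under salt, opposite to *ASN1*, and all 4 of their changes were called. *ASN2* changed by -1.61 in wild-type and -2.34 in overexpressor seedlings, and *ASN3* by -1.02 and -1.62. Under mock treatment their differences between the genotypes were 0.07 (SE 0.37) and -0.18 (SE 0.17). The asparaginase genes *ASPGA1* and *ASPGB1* changed with salt by -0.46 (adjusted p = 0.02) and -0.36 (adjusted p = 0.055), and by -0.21 (adjusted p = 0.52) and -0.86 (adjusted p = 0.0079), and neither was called between the genotypes. *ASN3* was lower in the salt-treated overexpressor than in the salt-treated wild-type, with a log2 difference of -0.78 (SE 0.17, adjusted p = 0.036). In that comparison 279 of all probe sets were called higher (1.23%) and 178 lower (0.783%). With only the groups compared these counts were 2 and 1, and *ASN3* was not followed under other settings. In the BT family, *BT4* changed with salt by 2.93 and 3.02 in the 2 genotypes, while *BT5* changed by -2.31 and -2.23, the direction of *BT2*. Their differences between the genotypes under mock treatment were 0.20 (SE 0.24) and -0.20 (SE 0.22).

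Of the β-glucosidase genes nearest in family to *DIN2*, *BGLU28* resembled it most. It rose with salt by 3.79 and 5.55 in the same order, and under mock treatment it was lower in the overexpressor, with a difference of -1.89 (SE 0.25, adjusted p = 0.0052). Its mock means were 409 ± 163 (SD, n = 3) for the wild-type and 104 ± 7.82 for the overexpressor, both above the near-background level. *BGLU29*, *BGLU31* and *BGLU32* were near background in most groups. Of these, *BGLU31* was called higher with salt in the wild-type, by 3.98 (SE 1.22, adjusted p = 0.02), from a mean of 8.35 to 60.4 ± 34.3 (SD, n = 3). In the overexpressor it changed by -0.71 (SE 1.22, adjusted p = 0.69), unlike *DIN2* and *BGLU28*. Of the β-xylosidase genes, *BXL4* changed with salt by -1.27 and -1.86, and its mock difference was 0.37 (SE 0.22, adjusted p = 0.69). *BXL5* changed with salt by 0.36 (adjusted p = 0.22) and 0.67 (adjusted p = 0.027), opposite to *BXL2*, and *BXL6* by -0.44 (adjusted p = 0.037) and -0.14 (adjusted p = 0.5). *BXL7* rose in the overexpressor by 0.77 and was higher there than in the wild-type under salt by 0.48 (SE 0.09, adjusted p = 0.024). The second comparison called 1.23% of all probe sets higher, and *BXL7* was not followed under other settings. Only 2 of 16 other β-galactosidase genes were measured. *BGAL1*, also a member of the starvation list, changed by -1.02 and -1.77, and *BGAL16* by 0.06 (adjusted p = 0.89) and -0.43 (adjusted p = 0.21).

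The other SnRK1 subunit genes measured were *AKINBETA2* and *AKINBETA3*, 2 of 8 on the list. Their differences between the genotypes under mock treatment were 0.01 (SE 0.11) and 0.11 (SE 0.12), and neither was called. With salt *AKINBETA2* changed by -0.44 in the wild-type (adjusted p = 0.0067) and by -0.25 in the overexpressor (adjusted p = 0.085), and *AKINBETA3* by -0.36 in both.

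**Figure D4:**
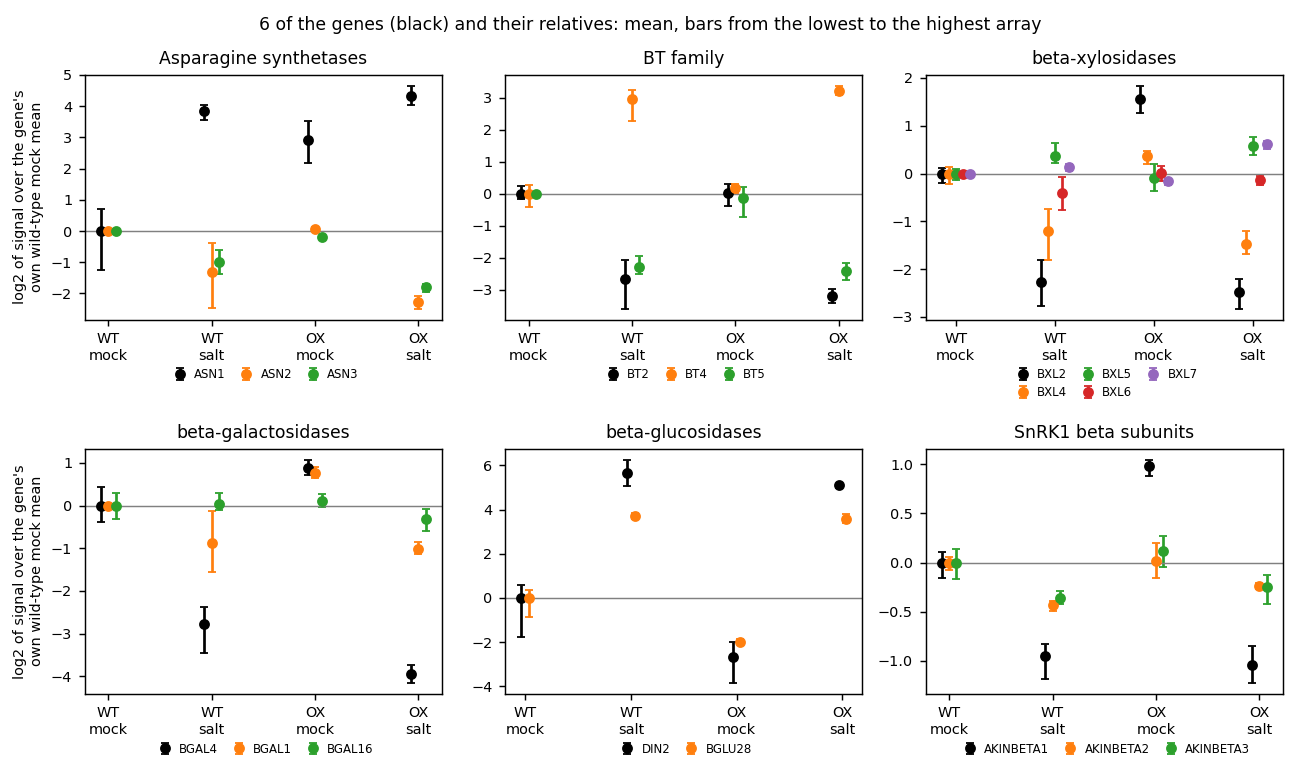
Signals of 6 of the genes (black) and their measured relatives, each as log2 of the signal over its own mean in the mock-treated wild-type, with bars from the lowest to the highest of the 3 arrays. *ASN1* goes up with salt where *ASN2* and *ASN3* go down, and *BT4* goes opposite to *BT2* and *BT5*. In the mock-treated overexpressor *AKINBETA1* stands apart from its wild-type level while *AKINBETA2* and *AKINBETA3* stay near theirs. Their differences in the limma fit, which compares means of log2 signals, were 0.98, 0.01 and 0.11.

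Genes raised by sugar were measured for 3 of 10 on a second list. *APL3*, a gene for a large subunit of ADP-glucose pyrophosphorylase in starch synthesis, rose with salt by 2.85 (adjusted p = 0.0004) and 4.86 (adjusted p = 6.6e-06), for the wild-type and then the overexpressor. *APL4* changed by 1.40 (adjusted p = 0.076) and 3.04 (adjusted p = 0.0011). *NIA1*, a nitrate reductase gene, changed by -1.27 (adjusted p = 0.056) and -2.36 (adjusted p = 0.0019). It was paired only by the tables of the study, so its call is not independent evidence. Under mock treatment none of the 3 was called between the genotypes, with differences of -1.25 (SE 0.46), -0.78 (SE 0.58) and 0.52 (SE 0.49).

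Markers of time of day and of tissue were few. Of 10 clock and evening genes, *GI* was measured, and its difference between the genotypes under mock treatment was -0.06 (SE 0.20, adjusted p = 0.98), while it changed with salt by -0.57 (adjusted p = 0.041) and -0.56 (adjusted p = 0.044). Of 9 shoot markers, *RCA*, the gene for Rubisco activase, was measured. It lay between 20082 and 22906 in the mock-treated wild-type, between 18297 and 29241 in the mock-treated overexpressor, between 6892 and 20119 in the salt-treated wild-type and between 9387 and 10897 in the salt-treated overexpressor. It changed with salt by -0.86 (adjusted p = 0.042) and -1.12 (adjusted p = 0.011). The summed signal of 3 of 6 root markers lay between 15182 and 17879, between 15227 and 18287, between 14191 and 19740 and between 12556 and 14047 in the same order of groups, and no measured marker was at 0. *PYK10*, a β-glucosidase gene of roots, makes up most of that sum, and the other 2 markers are given singly. *PRX72*, a peroxidase gene, lay between 275 and 335 (wild-type) or 400 and 464 (overexpressor) after mock treatment, and between 174 and 315 (wild-type) or 119 and 151 (overexpressor) after salt. It had the group order of *SEN1*, with differences of 0.51 (adjusted p = 0.46) between the genotypes under mock treatment and -1.76 (adjusted p = 4.1e-05) with salt in the overexpressor. *EXPA7*, an expansin gene of root hairs, was not called in any comparison. The part of sampling time and of tissue shares in the differences of the starvation genes was not tested. None of 4 seed markers and none of 5 markers of senescing leaves could be paired with a probe set here, so their levels are not known.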

How the data were processed

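The authors hybridized RNA of 12 seedling samples to ATH1 arrays and made signals with MAS5, per the submitters' processing notes, and the deposited values used here are these linear intensity values, which the authors had scaled so that all arrays shared 1 trimmed mean. Neither detection calls nor scans entered. Without the 64 controls, log2 signals of 22746 of 22810 probe sets were fitted in R 4.3.3 with limma 3.58.1 as 4 group means with an intensity trend in the variances. Adjusted p are two-sided Benjamini-Hochberg values over all probe sets, called under 0.05. The script was tested on simulated data. Probe sets were paired with 1 gene through the annotation (13362) or, failing that, the tables of the study (699). Where a listed gene had several probe sets, the one with the highest mean was used.

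The members and gene lists were chosen with earlier results of these data known. The genes named were the 7, from each list up to 6 measured genes by their adjusted p, all genes of lists with up to 12 measured, and up to 3 genes closest to each of the 7 by Pearson r. Further genes of the starvation list were named after their values were seen.

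The fit was repeated with array quality weights, without the trend, with quantile normalization or median centring, with a filter at the 40th percentile or low signals raised to the 20th, with only the groups compared, with the replicate number as a block, with all probe sets of a gene and without each array. The methods' t-test was run on the same log2 signals. Precision is limited by the number of arrays. Sequences were not analysed here.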

Additional observations from a re-analysis of the deposited data

Results flagged for a closer look

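The salt change was called different between the genotypes in the limma interaction for 3 of the genes described, all more negative in the overexpressor. Of all probe sets, 0.246% were called with a more positive and 0.0528% with a more negative change. *MCCA* had a difference of -1.45 on the log2 scale (SE 0.25, adjusted p = 0.037), with mean signals of 693 and 705 in the mock-treated and salt-treated wild-type and of 1415 and 515 in the overexpressor. *BGAL4* had a difference of -2.04 (SE 0.37) and *AKINBETA1* one of -1.07 (SE 0.19). These 2 belong to the genes that were chosen with their values known, so their differences are a description. With the replicate number as a block, or with no intensity trend, none of the 3 was called. With 1 array left out, *AKINBETA1* and *MCCA* were called only without wild-type salt replicate 1 or 2, and *BGAL4* also without wild-type mock replicate 1 or wild-type salt replicate 3.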

How the results depend on the processing

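Of 693 values of the 7 genes under the alternatives, 690 moved by less than the spread between replicates and 3 moved by more. Among called values, 0 changed sign. Many of the 693 could not move. Dropping the trend, filtering, blocking by replicate or restricting the fit to the compared groups leaves the log2 differences as they were. Leaving out an array from a group outside a comparison does the same. The 690 are therefore not a measure of stability. The 3 were those of *BGAL4* with array quality weights, which were -3.30 for salt in the wild-type, -0.68 between the genotypes under salt and -1.56 for the difference in the salt change. For the 23 other starvation genes, the methods' t-test called 0 higher and 0 lower with salt in the wild-type, 0 higher under mock treatment and 0 higher under salt. Among all 22746 probe sets it called 4, 0, 0 and 0 in the same order. At an unadjusted p under 0.05 it gave 4, 8, 10 and 1 of the 23 genes. The methods' threshold for salt was p under 0.01 with a fold change above 3. There it gave 1 higher and 1 lower of the 23 in the wild-type and 2 and 9 in the overexpressor. In the overexpressor 3 and 13 passed after Benjamini-Hochberg adjustment, against 2553 and 3546 of all probe sets. Shares of all probe sets at these unadjusted thresholds were not computed. Of the 23 genes, limma called 9 higher in the mock-treated overexpressor with array quality weights, 0 when variances followed no intensity trend and 0 to 8 with an array left out. The counts over all probe sets were 250, 8 and 6 to 112, against 30 in the main fit. Higher in the salt-treated overexpressor were 2 of the 23 with weights, 0 with only the groups compared and 0 to 2 with an array left out. Over all probe sets these counts were 1696, 2 and 23 to 1154, against 279 in the main fit. Lower under salt were 1 of the 23 with weights and 0 to 1 with an array left out. With weights 1403 of all probe sets were lower there, against 178 in the main fit. A more negative salt change in the overexpressor was called for 2 genes with quantile normalization, median centring or the filter, 0 without the trend, 4 with weights and 0 to 4 with an array left out. The cause was not tested.

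The labels number the replicates of every group alike but do not say whether same-numbered samples were grown or handled together. The deviations of same-numbered arrays from their group means had r between -0.07 and 0.09 over 18 pairs. The highest was that of replicate 2 in the salt-treated wild-type and overexpressor. These values, taken over all probe sets, show no strong pairing and cannot exclude a weaker one. With the replicate number as a block, 0 of the 23 genes had a called difference in the salt change, in place of 1, with 10 at an unadjusted p under 0.05 in limma. The block also ended the calls of *BGAL4* and *AKINBETA1* for the salt change and that of *BGAL4* between the genotypes under salt, which left 0 of the 7 called in both. The signals near background, such as those of *DIN2* in the mock-treated overexpressor, limit the size of a fold change.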
